A study of Mus musculus with 6 samples.

Results

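The genes described here are the Wnt ligands, their receptors and co-receptors, the proteins that modulate them, and the core of the β-catenin branch, in corneal epithelium regenerating after a wound. They were chosen by gene symbol alone: the Wnt, Fzd, Sfrp, Dkk, Lgr, Rspo and Tcf7 families, with Lrp5, Lrp6, Axin1, Axin2, Ctnnb1, Rnf43 and Znrf3. These symbols found 46 of the 14968 genes in the expression table. Polyadenylated RNA of this epithelium had been sequenced in 6 libraries from C57BL/6 mice, 3 from non-diabetic controls and 3 from mice examined 16 weeks after streptozotocin (STZ), a toxin that kills the insulin-producing β cells of the pancreas and so models type 1 diabetes. In the study male mice of both groups had the corneal epithelium scraped off, the healing tissue was collected the following day, and epithelium of several mice was pooled for each library. All mice therefore carried a wound, and no unwounded cornea is part of the comparison. Expression is given as FPKM, that is, sequenced fragments divided by transcript length and by the size of the library, so that levels of different genes can be set side by side.

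Wnt proteins are lipid-modified secreted ligands that bind Frizzled receptors. Together with the co-receptors Lrp5 or Lrp6 they stop the Axin-based complex from destroying β-catenin, which then enters the nucleus and acts with TCF/LEF factors on target genes, among them Axin2, whereas other ligands act through Frizzleds on cell polarity and movement without β-catenin. Secreted antagonists of the Dkk and Sfrp families restrain the ligands or their receptors, and R-spondins, acting through Lgr receptors, protect Frizzleds from removal by the ligases Rnf43 and Znrf3. In the mouse cornea, Dkk2 is known to be needed for the epithelium to become corneal and not skin-like.

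The library sums of FPKM lay between 308757 and 331926, and Pearson's r of log2(FPKM + 1) across genes was 0.975 to 0.984 between libraries of different groups. The corneal keratin gene Krt12 stood at 3064 to 5743 FPKM and the epithelial markers Krt5, Krt14 and Pax6 were present in every library. Marker genes of other cells also differed between libraries. The 18 stromal markers summed to 770 to 775 FPKM in the controls and to 774, 757 and 606 in diabetic replicates 1, 2 and 3. The lens markers, 15 genes led by crystallins, summed to 40.8 to 48.3 FPKM in the controls and to 106, 358 and 62.9 in those diabetic replicates. The neutrophil markers, 14 genes in the table, summed to 378 to 712 in the controls and 737 to 1128 in the diabetic libraries, and the 7 erythrocyte markers to 41.3 to 107 and 9.90 to 22.3. Markers of conjunctiva and goblet cells summed to 1879 to 2207 FPKM in control and 1985 to 2465 in diabetic libraries, and those of corneal endothelium to 417 to 572 and 355 to 462. At an unadjusted limma p under 0.05, 1 of 18 tested stromal genes was higher and 5 lower, and 4 of 5 erythrocyte genes were lower. Of the lens genes 7 of 15 were higher, and of the neutrophil genes 4 of 12, with 0 lower in either list. Of 7 conjunctival and goblet cell genes, 3 were higher and 1 lower. Of 12 corneal epithelial genes, 3 were higher and 1 lower. Of 11 monocyte and macrophage genes, 3 were higher and 2 lower. Of 5 corneal endothelial genes, 2 were lower. Of 2 tested T and NK cell genes, 1 was higher. The 3 T and NK cell markers in the table summed to 0.641 to 2.28 FPKM in control and 1.67 to 4.56 in diabetic libraries. The shares over all genes tested were 4.61% higher and 6.91% lower. The part of these markers in the Wnt values was not tested. In bulk tissue of this kind, fewer cells of a type and less RNA per cell cannot be told apart.

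Of the 46 Wnt genes, 36 reached a mean of 0.5 FPKM in 1 or both groups and were tested. Among these, Sfrp2 passed through the diabetic mean only. The other 10 were Wnt2b, Wnt7a, Wnt16, Fzd3, Fzd9, Rspo2, Rspo3, Lgr5, Sfrp4 and Sfrp5. Fzd3 was above 0 in every library, at 0.0859 to 0.185 FPKM, Lgr5 was listed at 0 in all 6, and the other 8 did not exceed 0.0775 FPKM in any library.

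With 0 of the 36 past an adjusted p of 0.05 in limma, the test found no single Wnt gene that differed between diabetic and control epithelium after correction, against 8 of the 12149 genes tested (0.0658%). At an unadjusted p under 0.05 there were 3 higher genes, the ligands Wnt6 and Wnt9a and the antagonist-family gene Dkk3, that is 8.33% of the members beside 4.61% of all genes, and 0 lower genes beside 6.91% of all genes. The study's own methods add a change of at least 1.5-fold in either direction to an unadjusted p under 0.05. The study took its p from ballgown, so its calls can differ from those given here. With the limma p and the change on log2(FPKM + 1), these thresholds were met by 1 member, Dkk3 (2.78%), beside 2.49% of all genes. Wnt6 missed them at a log2 fold change of 0.58 on that scale, although its ratio of mean FPKM was 1.77, and 2 members met them with a pseudocount of 0.1 or 0.5, in TPM, or under quantile normalization or median-of-ratios scaling. The 3 diabetic values lay wholly above the 3 control values for 3 members (Wnt6, Wnt9a and Sfrp2, 8.33% beside 6.68% of all genes). They lay wholly below for 2 members (Fzd7 and Lrp6, 5.56% beside 10.9%). Sfrp2 was tested only because its diabetic mean passed the filter, which favours a higher diabetic value, so its place in this count is no support. The median log2 fold change over the tested members was -0.04, with 16 higher and 20 lower, and that of all genes tested was also -0.04.

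**Figure D1:**
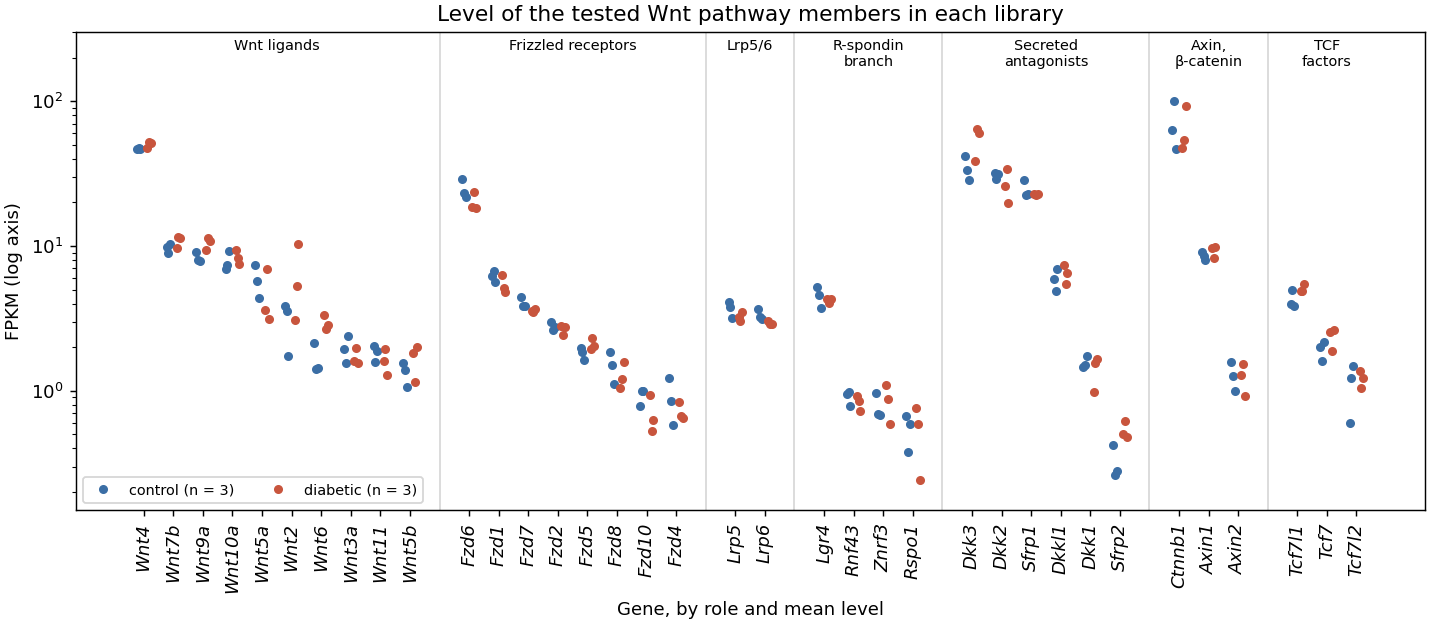
FPKM of the 36 tested genes on a logarithmic axis, grouped by role and ordered by mean level within each role, with 1 point per library (3 control, 3 diabetic). Ctnnb1, Wnt4, Dkk3, Dkk2, Fzd6 and Sfrp1 stand above the other members, and for most genes the points of the groups overlap.

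**Figure D2:**
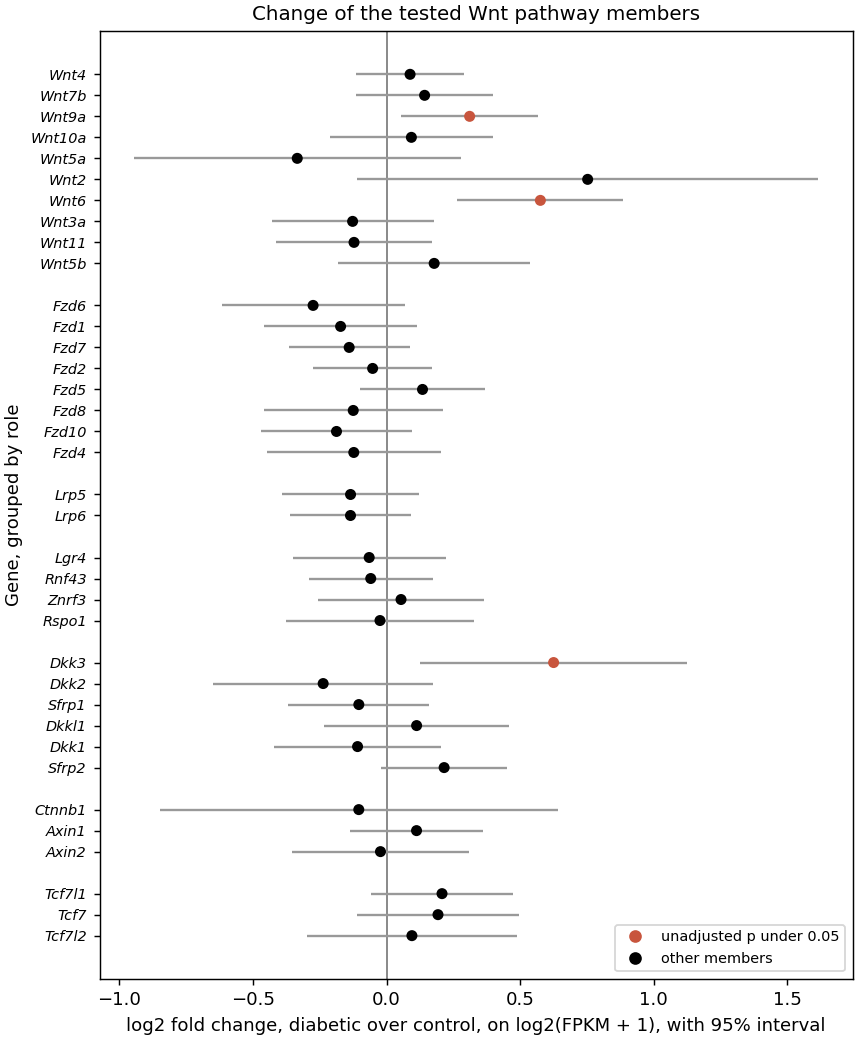
Log2 fold change of diabetic over control for the 36 tested genes, on log2(FPKM + 1), with the 95% interval of the limma fit as a bar. Coloured points mark Wnt6, Wnt9a and Dkk3, whose unadjusted p was under 0.05, and their intervals are the ones that do not cross 0.

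Of the 10 ligands tested, 7 lay higher in diabetic epithelium and 3 lower, beside 61.0% lower over all genes, with a median log2 fold change of 0.12. Wnt6 and Wnt9a differed most clearly between the groups. Upstream sequences are printed for these genes, as the ligands whose groups did not overlap, and for the antagonist gene Dkk1, as a known target of β-catenin with matches to the TCF/LEF motif. They come from RefSeq on GRCm38.p6 and are written 5′ to 3′ on the strand of the gene. The Wnt6 stretch is chr1:74771642-74771891 on the plus strand, the Wnt9a stretch chr11:59306680-59306927 on the plus strand, and both end at the base before the gene starts in the table. The Dkk1 stretch is chr19:30549588-30549613 on the minus strand, 92 to 117 bases before the RefSeq start, where the table's annotation already places the first exon. Capitals mark GC boxes (GGGCGG, or CCGCCC on the other strand) in Wnt6 and Wnt9a, and TCF/LEF matches in Dkk1.
Wnt6: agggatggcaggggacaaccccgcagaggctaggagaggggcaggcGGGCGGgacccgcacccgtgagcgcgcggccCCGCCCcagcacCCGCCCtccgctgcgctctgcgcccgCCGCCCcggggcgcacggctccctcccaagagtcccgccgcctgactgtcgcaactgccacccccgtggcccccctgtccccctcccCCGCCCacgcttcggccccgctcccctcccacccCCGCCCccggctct
Wnt9a: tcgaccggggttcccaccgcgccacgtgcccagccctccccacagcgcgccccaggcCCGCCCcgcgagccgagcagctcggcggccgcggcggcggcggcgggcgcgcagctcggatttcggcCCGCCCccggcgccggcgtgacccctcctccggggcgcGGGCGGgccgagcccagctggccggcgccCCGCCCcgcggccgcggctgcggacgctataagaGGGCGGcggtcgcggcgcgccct
Dkk1: CTTTGAAatcccatcccggCTTTGTT
The GC box, which binds Sp1-family factors, occurred 6 times before Wnt6 and 5 times before Wnt9a. The windows of 250 bases were 79.6% and 84.4% G or C for these genes, beside a median of 52.4% over all RefSeq promoters of the build. A GC box was found in 24 of the 36 windows of the 29 Wnt genes matched (66.7%) and in 32.7% of all 32851 windows. The TCF/LEF motif, searched on both strands as the letters CTTTG followed by any pair of A and T bases, was found in 5 of the 36 windows (13.9%), those of Dkk1, Fzd7, Tcf7l2, Wnt11 and Wnt5b, and in 14.8% of all windows. These matches describe letters in a window only.

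Wnt6 (ENSMUSG00000033227.7, chromosome 1, 74771892 to 74785322 on GRCm38, plus strand), a ligand made by surface ectoderm and its derivatives, stood at 2.13, 1.42 and 1.44 FPKM in the controls and at 3.32, 2.67 and 2.87 in the diabetic libraries. Every diabetic value lay above every control value. The mean was 1.67 ± 0.406 FPKM in control and 2.95 ± 0.331 in diabetic epithelium (SD, n = 3). On log2(FPKM + 1), a scale that understates changes of low genes, the difference was 0.58 (SE 0.13, 95% interval 0.27 to 0.89), with an unadjusted limma p of 0.00288 and an adjusted p of 0.194. Its span overlaps the antisense gene Gm29539 over 2463 bases. The kit was stranded, but whether strand was used in counting is not given in the sources used here. Whether reads of Gm29539 are part of the Wnt6 value is therefore not known. The same holds for antisense genes annotated at Wnt5a, Wnt7b, Rspo1, Sfrp2, Axin2, Ctnnb1, Tcf7 and Tcf7l1, and for Wnt5b, which overlaps Fbxl14. Genes of other kinds lie on the opposite strand at Fzd5, Fzd6, Wnt11, Axin1 and Rnf43.

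Wnt9a (ENSMUSG00000000126.11, chromosome 11, 59306928 to 59333552, plus strand), a ligand known from joint formation, stood at 9.06, 7.97 and 7.91 FPKM in the controls and at 9.44, 11.4 and 10.9 in the diabetic libraries. The groups did not overlap, but the lowest diabetic value and the highest control value were close. The means were 8.31 ± 0.647 and 10.6 ± 1.00 FPKM (SD, n = 3), and the log2 fold change of 0.31 (SE 0.11, 95% interval 0.05 to 0.57) had an unadjusted limma p of 0.0236 and an adjusted p of 0.351. When 1 library was left out, the log2 fold change ran from 0.26 to 0.38, and the unadjusted p was above 0.05 without control replicate 2 (0.0786), control replicate 3 (0.0674), diabetic replicate 2 (0.0857) or diabetic replicate 3 (0.0519).

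Both genes lie beside another Wnt gene, in ligand pairs that are close together in the genome. Wnt10a, mutated in human disorders of teeth and skin appendages, begins 6193 bases beyond the end of Wnt6 on the same strand. It stood at 6.97, 7.42 and 9.22 FPKM in control and 9.39, 8.33 and 7.58 in diabetic libraries, with a log2 fold change of 0.09 (SE 0.13). The groups of Wnt10a overlapped over most of their range, and the ratio of Wnt6 to Wnt10a was 0.306, 0.191 and 0.157 in the controls and 0.353, 0.321 and 0.379 in the diabetic libraries. Wnt3a, a strong activator of the β-catenin branch, lies 16175 bases from Wnt9a on the opposite strand. It stood at 1.96, 1.56 and 2.38 FPKM in control and 1.60, 1.97 and 1.55 in diabetic libraries, and the ratio of Wnt9a to Wnt3a was 4.63, 5.09 and 3.32 in control against 5.90, 5.78 and 7.00 in diabetic libraries. For neither pair did the ratios of the groups overlap. Wnt6 and Wnt9a had been picked for groups without overlap, which favours ratios without overlap. The ratios were computed after the values had been seen and were not tested.

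**Figure D3:**
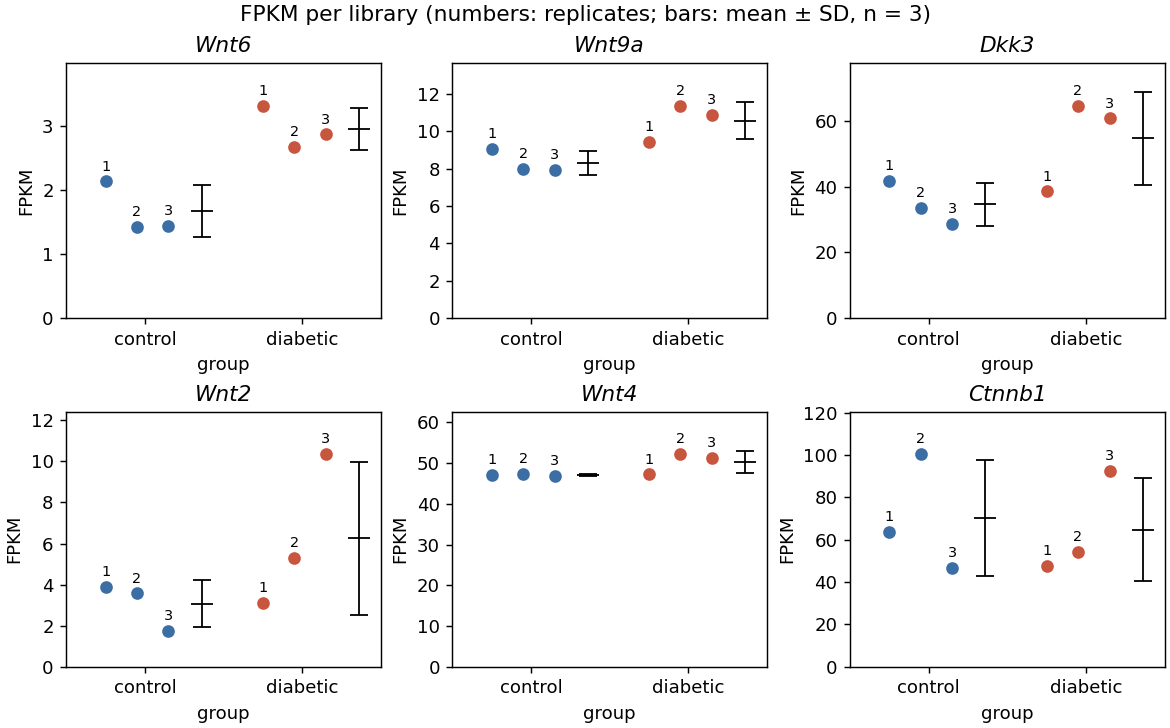
FPKM of Wnt6, Wnt9a, Dkk3, Wnt2, Wnt4 and Ctnnb1 in each library, on linear axes from 0, with replicate numbers above the points and the mean ± SD (n = 3) beside them. The groups do not overlap for Wnt6 and Wnt9a, while for Dkk3 diabetic replicate 1, at 38.5 FPKM, lies inside the control range.

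Wnt4 (ENSMUSG00000036856.4, chromosome 4, 137277489 to 137299726, plus strand), known for its roles in kidney and the female reproductive tract, was the ligand with the highest level. It stood at 47.2, 47.4 and 46.9 FPKM in the controls and at 47.2, 52.2 and 51.3 in the diabetic libraries. Its control values hardly varied, diabetic replicate 1 lay among them, and the other 2 diabetic libraries lay above. The log2 fold change was 0.09 (SE 0.09, adjusted p = 0.734 in limma), and the residual spread of Wnt4 stood at percentile 6.47 among genes of like level. Wnt7b (ENSMUSG00000022382.14, chromosome 15, 85535439 to 85581821, minus strand), an epithelial ligand with roles in lung and skin, was next by level, at 9.88, 8.96 and 10.3 FPKM in control and 9.68, 11.5 and 11.4 in diabetic libraries. Diabetic replicate 1 again lay inside the control range, and the log2 fold change was 0.14 (SE 0.11, adjusted p = 0.650). In the order of mean level, the neighbours Wnt7b, Wnt9a and Wnt10a overlapped in their values in the controls.

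**Figure D4:**
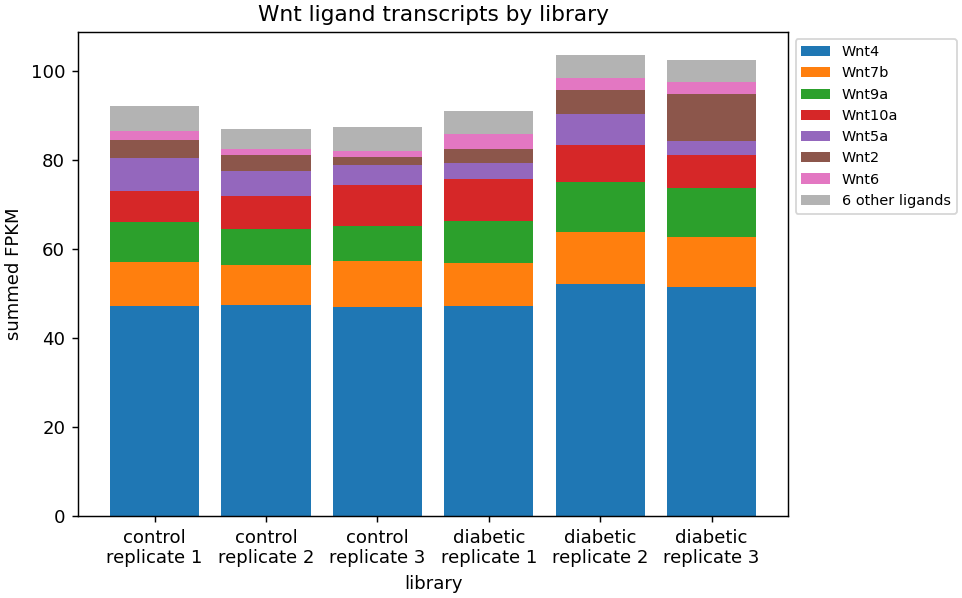
Summed FPKM of the 13 Wnt ligands in each library, stacked by gene, with the 6 ligands of lowest level together in grey. The Wnt4 segment makes up 50.1% to 54.5% of each bar, and the bars of diabetic replicates 2 and 3 are the tallest.

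The summed level of the ligands was 92.1, 87.0 and 87.3 FPKM in the controls and 90.9, 103 and 102 in the diabetic libraries, with Wnt4 as 50.1% to 54.5% of the sum. Diabetic replicate 1 lay inside the control range here as well. Wnt4 was the highest ligand in each of the 6 libraries, and by mean level over the libraries Wnt7b, Wnt9a and Wnt10a followed at 6.97 to 11.5 FPKM. That order was broken in single libraries, with Wnt5a (7.43 FPKM) above Wnt10a (6.97 FPKM) in control replicate 1 and Wnt2 (10.3 FPKM) above Wnt10a (7.58 FPKM) in diabetic replicate 3.

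Wnt2 and Wnt5a varied most among the ligands and are given in full after their values had been seen. Wnt2, a ligand of the β-catenin branch known from lung development, stood at 3.87, 3.57 and 1.75 FPKM in control and at 3.10, 5.31 and 10.3 in diabetic libraries. The groups overlapped through diabetic replicate 1, and the log2 fold change of 0.75 (SE 0.37) had an unadjusted limma p of 0.0789. Without diabetic replicate 3 it was 0.37, without control replicate 3 it was 0.49, and without diabetic replicate 1 it was 1.10 (unadjusted p = 0.0118). Diabetic replicate 3, where Wnt2 was highest, was also the library with the lowest summed stromal markers (606 FPKM), and the part of that in the value was not tested.

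Wnt5a, the best known ligand of the branch that acts without β-catenin, stood at 7.43, 5.70 and 4.39 FPKM in the controls and at 3.62, 6.92 and 3.15 in the diabetic libraries. Diabetic replicate 2 lay in the control range and the other 2 diabetic libraries lay below it, giving a log2 fold change of -0.33 (SE 0.26, unadjusted limma p of 0.241). Without diabetic replicate 2 the value was -0.62 (unadjusted p = 0.0165). The summed stromal markers given above were lowest in diabetic replicate 3 but near the controls in diabetic replicates 1 and 2 (774 and 757 FPKM), and their part in the Wnt5a values was not tested. Wnt11 and Wnt5b, further ligands known for non-canonical signalling, were at 1.29 to 2.04 and 1.06 to 2.0 FPKM over all libraries and had log2 fold changes of -0.12 and 0.18, with overlapping groups.

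Frizzled receptors lay lower in diabetic epithelium in 7 of the 8 tested, beside 61.0% of all genes tested, with a median log2 fold change of -0.13, and 0 of them had an unadjusted limma p under 0.05. Fzd6 (ENSMUSG00000022297.15, chromosome 15, 39006034 to 39038188, plus strand), a receptor known in the mouse for orienting hair follicles through planar cell polarity, was the most abundant. It stood at 29.2, 23.2 and 21.7 FPKM in the controls and at 18.7, 23.5 and 18.3 in the diabetic libraries. Diabetic replicate 2 lay among the controls and the other diabetic libraries below all of them. The log2 fold change was -0.27 (SE 0.15, adjusted p = 0.524), and without diabetic replicate 2 it was -0.38 (unadjusted p = 0.0401).

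Fzd1 (ENSMUSG00000044674.6, chromosome 5, 4753839 to 4758035, minus strand) stood at 6.20, 6.74 and 5.61 FPKM in control and 6.28, 5.10 and 4.8 in diabetic libraries, with a log2 fold change of -0.17 (SE 0.12). Fzd7 (ENSMUSG00000041075.8, chromosome 1, 59482424 to 59486955, plus strand), a receptor of the β-catenin branch in several stem cell compartments, stood at 4.46, 3.83 and 3.86 FPKM in control and 3.54, 3.51 and 3.68 in diabetic libraries. All diabetic values of Fzd7 lay below all control values, by a small margin. The log2 fold change was -0.14 (SE 0.10, 95% interval -0.37 to 0.09, adjusted p = 0.614 in limma). Fzd5 was the receptor that lay higher, at 1.65 to 1.96 FPKM in control and 1.94 to 2.30 in diabetic libraries (log2 fold change 0.13). Fzd2, Fzd8, Fzd10 and Fzd4, the last also the receptor of the Norrin ligand, were at or below 2.97 FPKM in every library, with log2 fold changes between -0.19 and -0.05.

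The summed Frizzled level was 48.8, 41.7 and 38.5 FPKM in the controls and 36.2, 39.4 and 34.6 in the diabetic libraries, with Fzd6 as 51.7% to 59.8% of it. The groups overlapped through diabetic replicate 2. The receptors and the ligands had medians of opposite sign, a difference that was not tested.

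The co-receptors Lrp5 (ENSMUSG00000024913.16, chromosome 19, 3584828 to 3686564, minus strand) and Lrp6 (ENSMUSG00000030201.15, chromosome 6, 134446476 to 134566965, minus strand), which complete the receptor of the β-catenin branch, were expressed at near-equal levels. Lrp5 stood at 4.09, 3.79 and 3.20 FPKM in control and 3.25, 3.04 and 3.49 in diabetic libraries. Lrp6 stood at 3.70, 3.21 and 3.13 FPKM in control and 3.04, 2.91 and 2.92 in diabetic libraries. The groups overlapped for Lrp5 and did not for Lrp6, where the diabetic values were close to the lowest control. Each had a log2 fold change of -0.13 (SE 0.11 for Lrp5 and 0.10 for Lrp6), and the adjusted limma p was 0.672 for Lrp5 and 0.628 for Lrp6.

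The R-spondin branch was represented mainly by the receptor Lgr4 (ENSMUSG00000050199.13, chromosome 2, 109917647 to 110014257, plus strand), which stood at 5.23, 4.57 and 3.71 FPKM in control and 4.32, 4.05 and 4.31 in diabetic libraries. The diabetic values all fell inside the control range, and the log2 fold change was -0.06 (SE 0.12). Its paralog Lgr5, a marker of cycling stem cells in the intestine, was listed at 0 throughout. The ligase genes were near 1 FPKM. Rnf43 (ENSMUSG00000034177.15, chromosome 11, 87662722 to 87735539, plus strand) stood at 0.952, 0.983 and 0.792 in control and 0.924, 0.848 and 0.727 in diabetic libraries, and Znrf3 (ENSMUSG00000041961.14, chromosome 11, 5276324 to 5444847, minus strand) at 0.974, 0.687 and 0.679 in control and 1.10, 0.873 and 0.594 in diabetic libraries. The groups of both overlapped, with log2 fold changes of -0.06 and 0.05. Rspo1, the R-spondin with the highest level, was at 0.244 to 0.760 FPKM, while Rspo2 and Rspo3 did not reach the filter.

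Among the secreted antagonists, Dkk3, Dkk2 and Sfrp1 stood at control means of 24.6 to 34.6 FPKM, near or above the 24.7 FPKM of Fzd6. Dkk3 (ENSMUSG00000030772.6, chromosome 7, 112116017 to 112159057, minus strand), a Dkk-family protein that, unlike Dkk1, is not an established inhibitor of Lrp5 and Lrp6, stood at 41.6, 33.4 and 28.7 FPKM in the controls and at 38.5, 64.6 and 60.7 in the diabetic libraries. Diabetic replicates 2 and 3 lay well above every control, and diabetic replicate 1 lay inside the control range. The means were 34.6 ± 6.53 and 54.6 ± 14.1 FPKM (SD, n = 3). The log2 fold change of 0.63 (SE 0.22, 95% interval 0.12 to 1.13) had an unadjusted limma p of 0.0207 and an adjusted p of 0.344. Without diabetic replicate 1 it was 0.85, with an adjusted p of 0.0942. The unadjusted limma p was above 0.05 without control replicate 2 (0.0508), control replicate 3 (0.0761), diabetic replicate 2 (0.0708) or diabetic replicate 3 (0.0719), with log2 fold changes of 0.49 to 0.61 in these fits. The lens markers were highest in diabetic replicate 2 (358 FPKM) and lower in diabetic replicate 3 (62.9 FPKM) than in diabetic replicate 1 (106 FPKM). The conjunctival and goblet cell markers summed to 1985, 2287 and 2465 FPKM in diabetic replicates 1, 2 and 3. The 12 corneal epithelial markers summed to 15489 to 16398 in the controls and to 15293, 17479 and 17926 in those libraries. Both lists had diabetic replicates 2 and 3 above every control and diabetic replicate 1 not, like Dkk3. They were picked after their values had been seen, and the part of these markers in the Dkk3 values was not tested.

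Dkk2 (ENSMUSG00000028031.6, chromosome 3, 132085292 to 132180304, plus strand) stood at 32.1, 28.9 and 31.5 FPKM in the controls and at 25.9, 33.9 and 20.0 in the diabetic libraries. The controls lay close together and the diabetic libraries on either side of them, with diabetic replicate 2 highest and diabetic replicate 3 lowest of all 6. The log2 fold change was -0.24 (SE 0.18, adjusted p = 0.637 in limma), and without diabetic replicate 2 it was -0.42 (unadjusted p = 0.0226). Within the diabetic group Dkk2 and Wnt5a had the same order of libraries, with diabetic replicate 2 highest and diabetic replicate 3 lowest. The summed stromal markers were also lowest in diabetic replicate 3 but highest in diabetic replicate 1, and their part in the Dkk2 values was not tested.

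Sfrp1 (ENSMUSG00000031548.7, chromosome 8, 23411502 to 23449632, plus strand), a soluble protein that binds Wnts through a Frizzled-like domain, stood at 28.4, 22.5 and 23.0 FPKM in control and 22.9, 22.5 and 22.7 in diabetic libraries. All diabetic values and the values of control replicates 2 and 3 lay within a narrow band, and control replicate 1 above it (log2 fold change -0.10, SE 0.11). Sfrp2, of the same family, was low, at 0.422, 0.261 and 0.281 FPKM in control and 0.501, 0.617 and 0.483 in diabetic libraries. The groups of Sfrp2 did not overlap, and the log2 fold change of 0.22 (SE 0.10) had an unadjusted limma p of 0.0668. It passed the filter through the diabetic mean only, and its values were chosen for printing after they had been seen. Dkk1, the classical blocker of Lrp5 and Lrp6, stood at 1.46, 1.51 and 1.74 FPKM in control and 0.982, 1.57 and 1.65 in diabetic libraries, with the groups overlapping (log2 fold change -0.11). Dkkl1, a Dkk3-related gene known from the testis, was at 4.88 to 7.45 FPKM with a log2 fold change of 0.11.

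The sum of the antagonists was 110, 91.5 and 92.2 FPKM in the controls and 96.2, 129 and 112 in the diabetic libraries. Dkk3 made up 31.1% to 37.8% of it in the controls and 40.01% to 54.2% in the diabetic libraries, so that in each diabetic library its share was above that in every control. The margin was small in diabetic replicate 1 (40.01% beside 37.8% in control replicate 1), where the level of Dkk3 itself lay inside the control range. The higher diabetic mean of Dkk3, already given above, favours a higher diabetic share, and this share was not tested.

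β-Catenin varied widely within both groups. Ctnnb1 (ENSMUSG00000006932.17, chromosome 9, 120929216 to 120960507, plus strand) stood at 63.7, 100 and 46.5 FPKM in the controls and at 47.5, 54.4 and 92.4 in the diabetic libraries. Each group held 1 library near the top of the range (control replicate 2 and diabetic replicate 3), and the groups overlapped fully. The means were 70.2 ± 27.5 and 64.8 ± 24.2 FPKM (SD, n = 3), with a log2 fold change of -0.10 (SE 0.32, 95% interval -0.85 to 0.64, adjusted p = 0.928 in limma). Its residual spread stood at percentile 99.0 among genes of like level. Its sign turned to 0.19 without control replicate 2 and to 0.09 without diabetic replicate 1. The span of Ctnnb1 overlaps Ulk4, on the opposite strand, over 5157 bases.

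Axin1 (ENSMUSG00000024182.16, chromosome 17, 26138688 to 26195811, plus strand), the scaffold of the destruction complex, stood at 9.12, 8.48 and 8.01 FPKM in control and 9.76, 8.34 and 9.87 in diabetic libraries. The groups overlapped and the log2 fold change was 0.11 (SE 0.11). Axin2 (ENSMUSG00000000142.15, chromosome 11, 108920349 to 108950783, plus strand), the feedback target most used as a readout of the β-catenin branch, stood at 1.57, 1.27 and 1.00 FPKM in control and 1.29, 1.52 and 0.926 in diabetic libraries. The ranges of Axin2 were nearly the same in both groups. Its log2 fold change was -0.02 (SE 0.14, 95% interval -0.35 to 0.31, adjusted p = 0.967), a value whose sign turned under quantile normalization (0.0023) and median-of-ratios scaling (0.0075).

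The 3 TCF factors all lay higher in diabetic epithelium, beside 39.0% of all genes tested, with a median log2 fold change of 0.19 and 0 of them at an unadjusted p under 0.05. Tcf7l1 (ENSMUSG00000055799.13, chromosome 6, 72626378 to 72789254, minus strand), which acts mostly as a repressor, stood at 4.0, 4.96 and 3.86 FPKM in control and 4.90, 4.86 and 5.45 in diabetic libraries. Control replicate 2 lay among the diabetic values and the other controls below them, and the log2 fold change was 0.21 (SE 0.11, adjusted p = 0.532 in limma). Tcf7 (ENSMUSG00000000782.15, chromosome 11, 52252371 to 52283014, minus strand), best known from T cells, stood at 2.0, 1.62 and 2.18 FPKM in control and 2.53, 1.90 and 2.65 in diabetic libraries (log2 fold change 0.19, SE 0.13). Its span overlaps the non-coding gene Gm26551 on the same strand over 17144 bases. Tcf7l2 (ENSMUSG00000024985.18, chromosome 19, 55741810 to 55933654, plus strand), the main factor of this family in intestinal epithelium, stood at 0.599, 1.24 and 1.48 FPKM in control and 1.37, 1.05 and 1.23 in diabetic libraries. Its diabetic values lay inside the control range (log2 fold change 0.10, SE 0.17), and without control replicate 1, the lowest library, the value was -0.09.

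The rest of the pathway was read from lists of 133 further genes in the table, of which 117 were tested. Of these, 41 lay higher and 76 lower in diabetic epithelium, with a median log2 fold change of -0.06 beside -0.04 for all genes, and 0 passed the adjusted threshold. At an unadjusted limma p under 0.05 there were 2 higher (1.71%) and 8 lower (6.84%), beside the shares of 4.61% and 6.91% over all genes given above. The genes for making and exporting Wnts lay lower in 5 of 5 tested, beside 61.0% of all genes, and 0 of them had an unadjusted p under 0.05. Among them Wls, which carries Wnts to the cell surface, stood at 16.0, 14.2 and 13.4 FPKM in control and 12.1, 13.3 and 12.6 in diabetic libraries, without overlap but with an unadjusted p of 0.127.

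Of the 20 tested target and feedback genes, 1 was higher and 4 were lower at an unadjusted limma p under 0.05, beside 4.61% higher and 6.91% lower over all genes. Wisp1, a matricellular protein of the CCN family, stood at 1.01, 1.05 and 0.702 FPKM in control and 0.373, 0.355 and 0.424 in diabetic libraries, with a log2 fold change of -0.47 (SE 0.11, adjusted p = 0.194). Its diabetic values were all below the lowest control. Wisp1 passed the filter through the control mean only, which favours a lower diabetic value. Its place in the counts of lower genes is therefore no support. The angiogenic factor gene Vegfa, with log2 fold change -0.50 (SE 0.14, adjusted p = 0.288), and the AP-1 subunit gene Jun, with log2 fold change -0.40 (SE 0.11, adjusted p = 0.289), are also controlled by many other pathways, and their groups did not overlap either. Sox9, a progenitor transcription factor, had a log2 fold change of -0.37 (SE 0.14, adjusted p = 0.396) with overlapping groups, and Bambi, a pseudoreceptor of the TGF-β family, was the higher gene at 0.26 (SE 0.11, adjusted p = 0.422). Ccnd1, a cyclin often used as a target gene, stood at 130 to 135 FPKM in control and 131 to 148 in diabetic libraries, and Axin2 was given above. The target genes thus included both directions, with medians of -0.13 for this list and -0.04 for all genes.

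Of the 13 other receptors tested, 2 were lower at an unadjusted limma p under 0.05, beside 6.91% of all genes. Ryk, a Wnt-binding receptor related to tyrosine kinases, stood at 24.9, 25.1 and 25.4 FPKM in control and 21.8, 18.5 and 21.1 in diabetic libraries (log2 fold change -0.29, SE 0.10, adjusted p = 0.344). Cthrc1, a secreted cofactor of Wnt and Frizzled in polarity signalling, stood at 6.45, 5.65 and 5.61 FPKM in control and 4.20, 5.02 and 3.22 in diabetic libraries (log2 fold change -0.44, SE 0.14, adjusted p = 0.327). In both genes every diabetic value lay below every control value.

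Planar cell polarity and non-canonical genes lay lower in 21 of 27 tested, beside 61.0% of all genes, with a median log2 fold change of -0.06. Of the 27, 2 were lower at an unadjusted limma p under 0.05, beside 6.91% of all genes. They were Prickle2, a core polarity gene, at log2 fold change -0.42 (SE 0.13, adjusted p = 0.318), and Wdpcp, a polarity effector also needed for cilia, at -0.38 (SE 0.16, adjusted p = 0.430). Among the 25 tested Dishevelled and destruction complex genes the directions were 12 higher and 13 lower. The Dishevelled partner gene Ccdc88c was the 1 higher at an unadjusted limma p under 0.05, beside 4.61% of all genes. Ccdc88c stood at 0.230 to 0.277 FPKM in control and 0.452 to 0.546 in diabetic libraries. It passed the filter through the diabetic mean only. The other antagonists, such as Apcdd1, lay lower in 5 of 5 tested and the β-catenin co-factors in 12 of 22, beside 61.0% of all genes, with 0 of either at an unadjusted p under 0.05.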

How the data were processed

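Polyadenylated RNA of regenerating corneal epithelium was sequenced in 3 control and 3 diabetic libraries, grouped and numbered by their titles. The submitters used a stranded kit, and their processing notes name FastQC, cutadapt, HISAT2, StringTie and GRCm38. The authors deposited FPKM per gene, scaled to transcript length and mapped fragments. These are not counts, and without the read depth counting error cannot be stated. Libraries are pools of mice, so p-values measure the spread between pools.

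Genes with a mean of at least 0.5 FPKM in 1 or both groups entered a two-sided limma fit (version 3.58.1 under R 4.3.3) of log2(FPKM + 1) on group with a variance trend, adjusted by the Benjamini-Hochberg method over all 12149 genes; 2819 were not tested. There were 4 residual degrees of freedom, to which moderation added 3.65, and a log2 fold change had a median standard error of 0.12. No permutation test was made, as 0.1 is the smallest exact p that 3 against 3 libraries allow. The model was tested on simulated data. Tables were handled with Python 3.11.15 and pandas 2.3.3.

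The Wnt genes, pathway lists, tests and alternatives were chosen with earlier results of these data known. Full values were given for members with an unadjusted p under 0.05, without overlap at a log2 fold change of at least 0.3 in size, or among the 3 highest of their role, and for up to 6 genes with the smallest p under 0.05 of each pathway list. Other genes given in full, among them Wnt2, Wnt5a, Wnt10a, Wnt3a, Sfrp2, Dkk1 and Wls, were chosen after their values were seen. All 46 identifiers were found in GENCODE M21, which gave the overlaps between genes, and 43 spans were identical there. Other members of these families were not analysed here.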

Additional observations from a re-analysis of the deposited data

How the results depend on the processing

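No Wnt gene passed the adjusted threshold under any of the 16 alternatives, and the smallest adjusted p was 0.0942 (Dkk3 without diabetic replicate 1). At an unadjusted p under 0.05, Wnt6 was called under all 16 (adjusted p 0.140 to 0.480) and Dkk3 and Wnt9a under 11 each. The number of Wnt genes at that level was 1 to 5 when 1 library was left out, and Wnt6 alone remained without control replicate 3 or without diabetic replicate 3. The share of all genes at that level was not computed for these fits, so the counts have no background beside them. Without diabetic replicate 2 the genes called were Wnt6, higher, and Wnt5a, Dkk2 and Fzd6, lower.

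Over all genes, the adjusted call went from 8 genes to 1 with no filter, 5 with quantile normalization, 3 without the variance trend and 0 without moderation, and to 1 to 66 when 1 library was left out. At an unadjusted p under 0.05, the fit without moderation still called 3 Wnt genes (Sfrp2, Wnt6 and Wnt9a), of which Sfrp2 passed the filter through its diabetic mean only. The thresholds of the study were met by 2 Wnt genes with a pseudocount of 0.1 or 0.5, TPM, quantile normalization or median-of-ratios scaling, by 0 without moderation, and by 0 to 2 with 1 library left out. Wnt genes whose groups did not overlap numbered 3 in TPM and 5 to 12 with 1 library left out, where fewer libraries are compared. Pathway genes outside the families at an unadjusted limma p under 0.05 numbered 5 to 17 with 1 library left out, against 10. Except for the adjusted call, shares over all genes were not computed under the alternatives, so these counts have no background beside them. The median log2 fold change of the Wnt genes was -0.072 with a pseudocount of 0.1 (all genes -0.054) and -0.010 with no filter (all genes -0.029). With a minimum of 2 FPKM it was 0.088, where that of all genes was -0.048. It was -0.012 with quantile normalization (all genes -0.0075) and -0.011 with median-of-ratios scaling (all genes 0.00086). With 1 library left out it was -0.044 to 0.028, beside -0.075 to 0.00026 for all genes.

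Of 332 values recomputed for the 21 Wnt genes that met the rule for full values, 9 changed sign, in 5 genes. Axin2 was 0.0023 with quantile normalization and 0.0075 with median-of-ratios scaling. With 1 library left out the values ran from -0.11 to 0.084 for Axin2, -0.17 to 0.029 for Lgr4, -0.091 to 0.23 for Tcf7l2, -0.39 to 0.19 for Ctnnb1 and -0.039 to 0.16 for Znrf3. Among the other tested members, the sign also turned in these fits for Dkk1 (-0.19 to 0.023), Fzd4 (-0.24 to 0.0054) and Rspo1 (-0.13 to 0.12).

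With the replicate number as a block, 3 genes passed the adjusted threshold over the whole table. In that limma fit 2 Wnt genes, Wnt6 and Dkk3, had an unadjusted p under 0.05, and the share of all genes at that level was not computed. Deviations of same-numbered libraries from their group means correlated at -0.20, 0.06 and -0.09, and those of differently numbered libraries at -0.23 to 0.29. With 3 libraries per group these values cannot decide whether same-numbered libraries belong together. The paper describes its screening as made on paired samples, without saying there what was paired. Elsewhere it applies the term to microRNA and mRNA fold changes, and it states that both were sequenced from 1 and the same sample. Depth is unknown, so how far it limits genes near 0.5 FPKM cannot be given.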
